A study of Homo sapiens with 4 samples.

Results

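The genes described here encode voltage-gated sodium and calcium channels and potassium channels. They were chosen by symbol among the protein-coding genes of the GENCODE annotation on hg19: KCN followed by a letter, SCN followed by a number and A, or CACNA followed by a number. The rule held for 119 of 20163 genes, 95 of them potassium channel genes and 24 sodium or calcium channel genes. Each peak was assigned to a single gene, that with the largest exon overlap on its strand, which placed 91 of the 8070 peaks of HL60 (1.13%) and 66 of the 8122 peaks of HL60/MX2 (0.813%) in these genes. HL60 is a human promyelocytic leukaemia line (genotype WT in the labels), and HL60/MX2 is its derivative that resists mitoxantrone (labelled as drug-resistant cells). In both, mRNA was selected with oligo(dT) beads, decapped, fragmented and enriched with an antibody against m7G, and regions with excess reads were called as peaks. Each line had 1 enriched library with a peak list, so the lines were set side by side without a test, and each 95% interval in brackets is an exact Clopper-Pearson interval for counting error alone. Input libraries and mRNA levels were not analysed here, so the abundance of the channel mRNAs in these cells is not known from these data, and neither is the read depth. The score is the value deposited for each peak, on a scale that is not stated, so it is mostly given by its percentile within its own list.

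N7-methylguanosine (m7G) is the base of the mRNA cap and also occurs inside mRNAs, and the cap is removed by decapping. Voltage-gated channels open when the membrane depolarises. Each of their pore-forming subunits or repeats carries a voltage sensor, the S4 segment, in which arginine or lysine residues recur with 2 other residues between them. Potassium-selective pores share a signature sequence that lines the selectivity filter. Sodium and calcium channels consist of a single long polypeptide with 4 such repeats, whereas potassium channels assemble from separate subunits, joined by auxiliary subunits that tune gating and traffic. These genes are best known from neurons, heart and muscle. Among them, KCNN4, KCNA3 and KCNH2 are also known from blood or leukaemia cells.

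The sequences that follow are from hg19, 5′ to 3′ on the strand of the gene. The first set shows where a peak covered the codons of an S4 segment, with the codons of arginine or lysine in capitals. The CACNA1E stretch (chr1:181546948-181546977, plus strand) and the SCN9A stretch (chr2:167089886-167089915, minus strand) lay under HL60 peaks, and the CACNA1G stretch (chr17:48647116-48647145, plus strand) lay under an HL60/MX2 peak.
CACNA1E: AGGaccctcCGGgctgtgCGTgtcctgCGG
SCN9A: AAAtcccttCGGacactgAGAgctttaAGA
CACNA1G: AGGacagtcCGTgtgctgCGAccgctcAGG
The second set shows bases that lay under peaks of both lists. For CACNA1D (chr3:53531478-53531488, plus strand, coding) and CACNA1G (chr17:48704814-48704832, plus strand, 3'UTR) the whole overlap is given, and for KCNH8 (chr3:19554505-19554534, plus strand, coding) the first 30 of its 275 bases. Capitals mark the word GGAAG, found here in the KCNH8 stretch, which was picked as a window that holds a motif word. The overlap in KCNS2 (218 bases) is not printed.
CACNA1D: gtggaatggaa
CACNA1G: aagtaattttcctaaataa
KCNH8: ccattgtGGAAGatgaGGAAGaggaggagg

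In HL60 cells, 56 of the 119 channel genes carried a peak, 47.1% (37.8-56.4%), where 26.4% of all genes did. In HL60/MX2 cells 44 carried a peak, 37.0% (28.3-46.3%), where 28.6% of all genes did. Channel genes have a median of 6108 bp of merged exon, against 4388 bp over all genes, and some have many exons. Each was therefore also set beside the other genes of its class of exon length and exon number. A peak was present in 32.2% of these like genes in HL60 and in 34.9% in HL60/MX2. The share of like genes thus lay below the interval of the channel genes in HL60 and inside it in HL60/MX2. The channel genes carried 0.765 peaks per gene in HL60, against 0.534 in like genes, and 0.555 in HL60/MX2, against 0.525. Peak density was 94.1 per Mb of merged exon in HL60 and 68.2 in HL60/MX2, where all genes had 69.4 and 69.9.

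Both lists held a peak in 25 channel genes (21%, all genes 12.0%, like genes 16.9%). Another 31 had a peak in HL60 only (26.1%, all genes 14.5%, like genes 15.3%) and 19 in HL60/MX2 only (16%, all genes 16.6%, like genes 18.0%). The remaining 44 genes had none. In HL60, 21 channel genes had 2 or more peaks (17.6%, all genes 7.74%, like genes 12.0%), and in HL60/MX2 16 did (13.4%, all genes 7.20%, like genes 11.2%). The highest number was 6 in HL60, in KCNMA1, and 3 in HL60/MX2, reached by 6 genes.

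**Figure D1:**
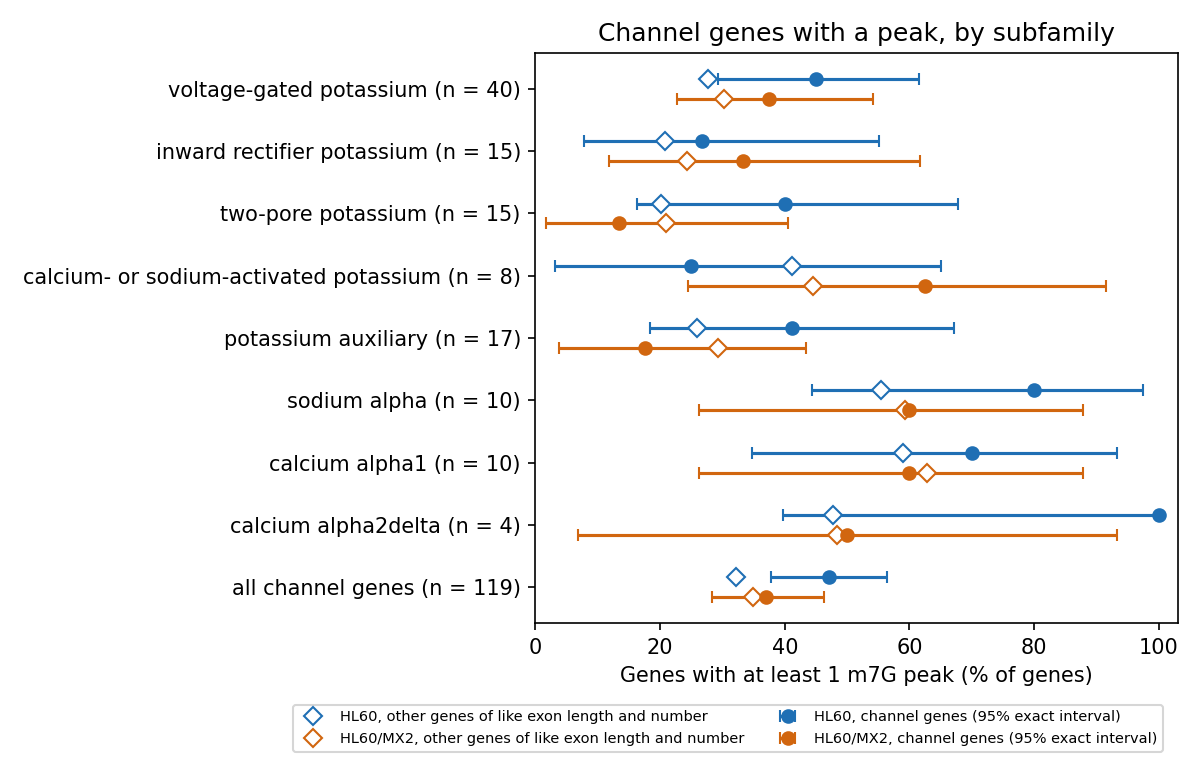
Share of channel genes with at least 1 m7G peak, by subfamily, for HL60 (blue) and HL60/MX2 (orange). Filled circles are the channel genes with exact 95% intervals and open diamonds are the other genes of like exon length and number. Over all 119 genes, the diamond lies outside the interval in HL60 (32.2% beside 47.1%) and inside it in HL60/MX2 (34.9% beside 37.0%).

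By subfamily, the share of like genes lay inside the interval of the channel genes in both lines, except for the voltage-gated potassium channels in HL60 (29.3-61.5%, like genes 27.7%).

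The channel genes with a peak had more coding exons than those without. Their median was 14 coding exons in HL60 and 13 in HL60/MX2, against a median of 3 for the channel genes without a peak in each line. Of the 28 genes with over 20 coding exons, 21 had a peak in HL60 (75%, like genes 55.4%) and 16 in HL60/MX2 (57.1%, like genes 58.8%). Of the 22 genes coded in 1 exon, 6 had a peak in HL60 (27.3%, like genes 20.3%) and 4 in HL60/MX2 (18.2%, like genes 22.3%).

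**Figure D2:**
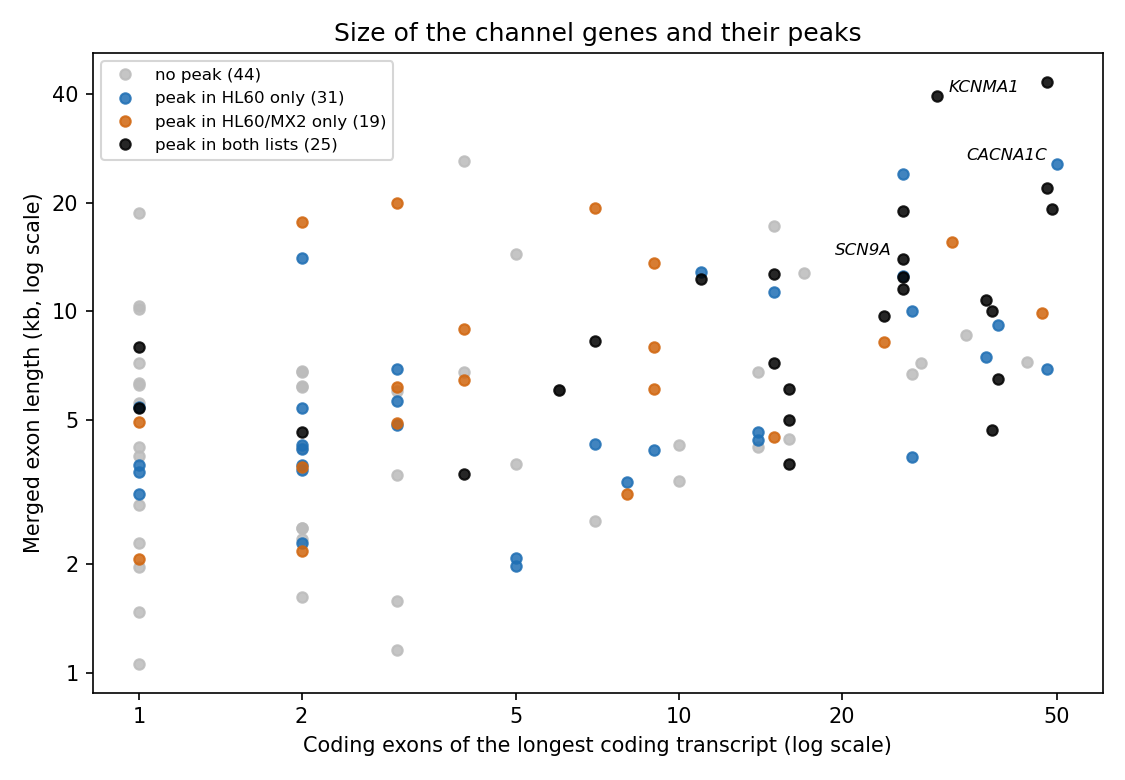
Coding exons of the longest coding transcript (x axis, log scale) and merged exon length in kb (y axis, log scale) of the 119 channel genes, coloured by the lists in which they had a peak. Of the 25 black points (peaks in both lists), 13 had over 20 coding exons, and of the 44 with none (grey), 14 had 1 and 17 had 2 to 5.

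The voltage-gated sodium channel alpha subunits carry the upstroke of the action potential. In HL60, 8 of the 10 genes had a peak (80.0%, like genes 55.5%), with 13 peaks in all, and in HL60/MX2 6 had one (60.0%, like genes 59.3%), with 10 peaks. With only peaks at or above the median score of their list, 3 sodium channel genes remained for HL60 and 2 for HL60/MX2. SCN9A, the channel of pain-sensing neurons, had 4 peaks in HL60 and 3 in HL60/MX2, all in coding exons. Its HL60 peaks covered exons 10 and 11 whole and parts of exons 4 and 21. In the order of exons 4, 10, 11 and 21 they stood at percentiles 88.1, 78.9, 78.9 and 12.8 of the HL60 scores. The HL60/MX2 peaks lay in exons 5, 7 and 13, at percentiles 21, 63.4 and 48.1 of their list. No exon of SCN9A carried a peak in both lists. The nearest pair, in exons 4 and 5, lay 590 bp of genome apart but met at the exon border on the mRNA.

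SCN8A, a sodium channel of brain neurons, had 1 peak in HL60 and 3 in HL60/MX2. In HL60 the peak covered the start codon at percentile 3.82, while in HL60/MX2 it was exon 17 (percentile 86.8) and the 3'UTR (percentiles 31.4 and 90.1) that carried peaks. SCN1A, another brain channel, had coding peaks in exons 13 and 14 in HL60, at percentiles 12.8 and 0.372, and a peak by the start codon in HL60/MX2 at percentile 19.9. The SCN1A peak in exon 14, with a score of 51.24, was the lowest of all channel gene peaks in HL60. SCN3A showed the reverse placement, with the start codon class in HL60 (percentile 3.82) and exon 19 in HL60/MX2 (percentile 49.2). SCN7A, a sodium level sensor, had a peak in exon 14 in HL60 (percentile 31.5) and by the start codon in HL60/MX2 (percentile 45.5).

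SCN2A and SCN11A had peaks in HL60 only. SCN2A had 1 in exon 11 (percentile 8.92) and SCN11A 1 in exon 31 and 1 in the 3'UTR (percentiles 38.5 and 64.0). SCN4A, the skeletal muscle channel, had a peak in HL60/MX2 only, in exon 12 at percentile 19.3. SCN10A had no peak in either list.

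The calcium channel alpha1 subunits form the pores through which calcium enters excitable cells. Of the 10 genes, 7 had a peak in HL60 (70.0%, like genes 58.9%), with 16 peaks, and 6 in HL60/MX2 (60.0%, like genes 62.9%), with 10 peaks. Among the L-type channels, CACNA1D had 4 peaks in HL60 and 2 in HL60/MX2. The HL60 peaks of CACNA1D were in exons 2, 4 and 23 (percentiles 13.9, 18.8 and 59.8) and in a coding exon of another isoform (percentile 70.2). In HL60/MX2 they were in exon 2 (percentile 76.7) and in another isoform (percentile 65.9). CACNA1C, the L-type channel of heart and smooth muscle, had 2 peaks in HL60 and 0 in HL60/MX2. In HL60, 1 covered exon 14 whole (percentile 51.9) and 1 lay in a UTR of another isoform (percentile 91.7). The study's own comparison of the lines lists CACNA1C among the genes with the largest gain of m7G in HL60/MX2. That site lies outside both HL60 peaks. CACNA1F, the retinal L-type channel, had 1 peak in HL60, in exon 20 at percentile 81.5.

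Among the neuronal channels of synapses and dendrites, CACNA1E (the R-type channel) had 4 peaks in HL60 and 2 in HL60/MX2, each in a different coding exon. The HL60 peaks of CACNA1E in exons 4, 10, 14 and 26 had percentiles from 1.39 to 80.5, and the HL60/MX2 peaks in exons 18 and 35 had percentiles of 89.5 and 70.5. CACNA1A (P/Q-type) had 1 peak in HL60, in exon 5 (percentile 82.2), and 2 in HL60/MX2, in exons 20 and 30 (percentiles 6.11 and 70.5). CACNA1B (N-type) had 1 peak, in HL60/MX2, covering exon 7 whole at percentile 44.4. The T-type channels CACNA1G and CACNA1I open near resting potential. CACNA1G had 2 peaks in each list, in exon 5 and the 3'UTR in HL60 (percentiles 80.0 and 32.5) and in exon 4 and the 3'UTR in HL60/MX2 (percentiles 63.4 and 4.20). CACNA1I had 2 coding peaks in HL60 (percentiles 43.8 and 32.5) and 1 in HL60/MX2 (percentile 54.4). CACNA1H and CACNA1S had none.

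The alpha2delta subunits are extracellular partners of the calcium channels. All 4 genes had a peak in HL60 (like genes 47.8%), with 7 peaks against 3.30 at the rate of like genes, and 2 of 4 in HL60/MX2 (like genes 48.3%), with 2 peaks against 2.99. In HL60/MX2 1 of the 4 genes kept a peak when only scores at or above the list median, or only peaks of at least 50 bp, were used. CACNA2D1, the gabapentin target, had 3 peaks and CACNA2D4 2 peaks in HL60, and neither had one in HL60/MX2. CACNA2D2 had an HL60 peak in exon 12 at percentile 95.6 and an HL60/MX2 peak in exon 5 at percentile 25.6. CACNA2D3 had an HL60 peak in exon 32 at percentile 31.4 and, in exon 6, the peak with the highest score of all channel genes in HL60/MX2 (839.72, percentile 91.9). The peaks of the lists in CACNA2D3 were 441832 bp of genome apart, introns included.

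Voltage-gated potassium channels repolarise the membrane. Of 40 genes, 18 had a peak in HL60 (45.0%, like genes 27.7%), with 27 peaks, and 15 in HL60/MX2 (37.5%, like genes 30.2%), with 22 peaks. The KCNH family (ether-a-go-go channels) had a peak in 6 of 8 genes in each list (interval 34.9-96.8%), and in 5 genes in both. Like genes had 34.1% in HL60, below this interval, and 36.5% in HL60/MX2, inside it. KCNH is a smaller grouping by symbol among many such families, singled out with its values known. KCNH2, the hERG channel of cardiac repolarisation, had 1 peak in HL60, over an exon of a non-coding transcript (percentile 75.9), and 3 in HL60/MX2, in exons 6 and 14 and over the stop codon (percentiles 51.7, 41.9 and 82.8). KCNH8 had 3 coding peaks in HL60, in exons 9, 10 and 13 (percentiles 34.5, 60.4 and 73.9), and 1 in HL60/MX2, also in exon 13 (percentile 24.2). KCNH5 had coding peaks in exons 8 and 11 in HL60 (percentiles 53.5 and 77.9) and in exon 11 in HL60/MX2 (percentile 80.3). KCNH4 stood high in both lists, in exon 2 in HL60 (percentile 96.9) and in exon 5 in HL60/MX2 (percentile 88.0). KCNH7 had its HL60 peak at the stop codon (percentile 61.8) and its HL60/MX2 peak in exon 11 (percentile 75.2). KCNH1 had a peak in HL60 only and KCNH3 in HL60/MX2 only, where its peak of 6 bp had the lowest score of the channel genes (51.81).

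Among the KCNQ channels, which carry slow currents that dampen firing, KCNQ3 had 4 peaks in HL60 and 2 in HL60/MX2. In HL60, 3 of them lay in the 3'UTR (percentiles from 34.5 to 52.5) and 1 in exon 10 (percentile 87.1), and both HL60/MX2 peaks lay in the 3'UTR (percentiles 62.5 and 84.1). KCNQ5 had a peak in HL60 only, in the 3'UTR at percentile 61.3. In the KCNA family of axonal channels, KCNA1 had peaks at the stop codon and in the 3'UTR in HL60 (percentiles 94.2 and 38.5) while its HL60/MX2 peak (percentile 56.5) was in the 5'UTR. KCNA7 had a peak in HL60 only, and the other 6 KCNA genes, KCNA3 of lymphocytes included, had none. KCNC2 and KCND3 had peaks in HL60/MX2 only, of which KCND3 had 3 (percentiles from 35.2 to 69.7). KCND2 had 1 in each list (percentiles 38.5 in HL60 and 35.2 in HL60/MX2), and KCNB2 had 1, of 6 bp, in HL60.

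The silent subunits form no channel alone and modify other subunits. All 3 KCNS genes had a peak in HL60 (interval 29.2-100%, like genes 19.7%), with 4 peaks. KCNS, like KCNH, is a smaller grouping by symbol among many such families, singled out with its values known. In HL60/MX2 1 had a peak (interval 0.840-90.6%, like genes 22.8%), with 2 peaks. Of the other silent families, 1 of 4 KCNG genes had a peak in each list (like genes 19.1% in HL60 and 22.1% in HL60/MX2). So did 1 of 2 KCNV genes (like genes 20.1% and 17.7%), and the 1 KCNF gene had none. KCNS1 had 2 peaks in the 3'UTR (percentiles 55.0 and 38.6) and KCNS3 1 in the CDS (percentile 66.6). KCNS2 had 1 peak in HL60, from codon 367 of 477 into the 3'UTR (percentile 82.4), and 2 in the 3'UTR in HL60/MX2 (percentiles 7.61 and 14.2). KCNG1 and KCNV1 had peaks in HL60 only, of which KCNV1 had 2 (percentiles 93.5 and 56.9), and KCNG3 and KCNV2 had 1 each in HL60/MX2 only.

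The inward rectifiers set the resting potential. Of 15 genes, 4 had a peak in HL60 (26.7%, like genes 20.8%) and 5 in HL60/MX2 (33.3%, like genes 24.2%). At scores at or above the list median, 1 of the 4 HL60 genes remained. KCNJ1, the renal outer medullary channel, was the gene with a peak in both, over codons 13 to 62 in HL60 (percentile 56.9) and over the stop codon in HL60/MX2 (percentile 21.1). KCNJ12, KCNJ13 and KCNJ14 had a peak in HL60 only, at percentiles from 10.6 to 44. The KCNJ12 peak is uncertain, since KCNJ12 has a near-identical paralog (KCNJ18) with which reads can be exchanged. KCNJ3, KCNJ4, KCNJ6 and KCNJ11 had peaks in HL60/MX2 only, of which KCNJ6 had 2 (percentiles 83.0 and 46.7). KCNJ11, the pore of the ATP-sensitive channel, had its peak in a UTR of another isoform at percentile 86.8.

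The tandem-pore (KCNK) channels carry leak currents. Of 15 genes, 6 had a peak in HL60 (40%, like genes 20.2%) and 2 in HL60/MX2 (13.3%, like genes 21%). The HL60 count was 3 with the upper scores of the list only. KCNK10, a stretch- and lipid-sensitive channel, had 2 peaks in HL60 (percentiles 97.3 and 18.8) and 3 in HL60/MX2 (percentiles 90.8, 79.4 and 27.8). In both lists the peak with the higher score lay in the last exon of KCNK10, and the nearest pair lay 4542 bp apart. KCNK2, KCNK12, KCNK13, KCNK16 and KCNK17 had 1 peak each in HL60 only, and KCNK6 had 1 in HL60/MX2 only.

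Of the 8 potassium channel genes that respond to calcium or sodium inside the cell, 2 had a peak in HL60 (25%, like genes 41.2%) and 5 in HL60/MX2 (62.5%, like genes 44.5%). KCNMA1, the large-conductance channel, carried 6 HL60 peaks and 2 HL60/MX2 peaks. KCNU1, the sperm channel, carried 2 and 0. The KCNU1 peak over exon 18 had the highest score of the channel genes in HL60 (1096.98, percentile 98.8). KCNMA1 peaks in HL60 had percentiles from 1.39 to 96.2, and 4 of the 6 lay off the longest coding transcript. The small- and intermediate-conductance family KCNN carried no HL60 peak but 6 HL60/MX2 peaks, in 3 of its 4 genes, a grouping by symbol that was picked out after its values were seen. The shares of like genes, 28.5% in HL60 and 30.9% in HL60/MX2, lay inside the KCNN intervals (0-60.2% and 19.4-99.4%). KCNN3 carried 3 of these in the 3'UTR (percentiles from 31.4 to 78.7), among them the longest peak of the channel genes, 1216 bp. KCNN2 had 2 (percentiles 47.0 and 23.4). KCNN4, the calcium-activated channel of blood cells, had 1 peak of 555 bp on chromosome 19 from 44284855 to 44285409, over the whole 5'UTR and the first 53 codons, at percentile 81.5. The annotated gene starts at 44285128 on the minus strand, so the peak reaches beyond it upstream. The sodium-activated KCNT1 had 1 peak in HL60/MX2 only.

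The auxiliary subunits had a peak in 7 of 17 genes in HL60 (41.2%, like genes 26.0%) and in 3 in HL60/MX2 (17.6%, like genes 29.3%). With the upper scores of each list only, these counts were 4 and 1. KCNMB2, a beta subunit of the large-conductance channel, had 1 peak in each list, in coding exon 4 in HL60 (percentile 92.9) and in a UTR of another isoform in HL60/MX2 (percentile 76.3). The HL60 peak overlapped exons of 2 genes of the same strand, so its assignment is uncertain. In HL60 only, KCNE4 and KCNIP1 had 2 peaks each and KCNAB3, KCNE3, KCNIP4 and KCNMB4 had 1 each. The KCNE4 peaks, at percentiles 59.8 and 72.9, lay in the class around the start codon and in the 3'UTR. The former ran on chromosome 2 from 223916715 to 223916934. The annotated gene starts at 223916908 on the plus strand, so most of this peak lies upstream of it. In HL60/MX2 only, KCNIP3 and KCNMB3 had 1 each (percentiles 25.6 and 11.1). Of the KCNE genes, single-span subunits of cardiac and epithelial channels, KCNE1, KCNE2 and KCNE5 had no peak in either list. Restricted to exons of the longest coding transcript (added once the data had been seen), 4 auxiliary genes kept a peak for HL60 and 1 for HL60/MX2.

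**Figure D3:**
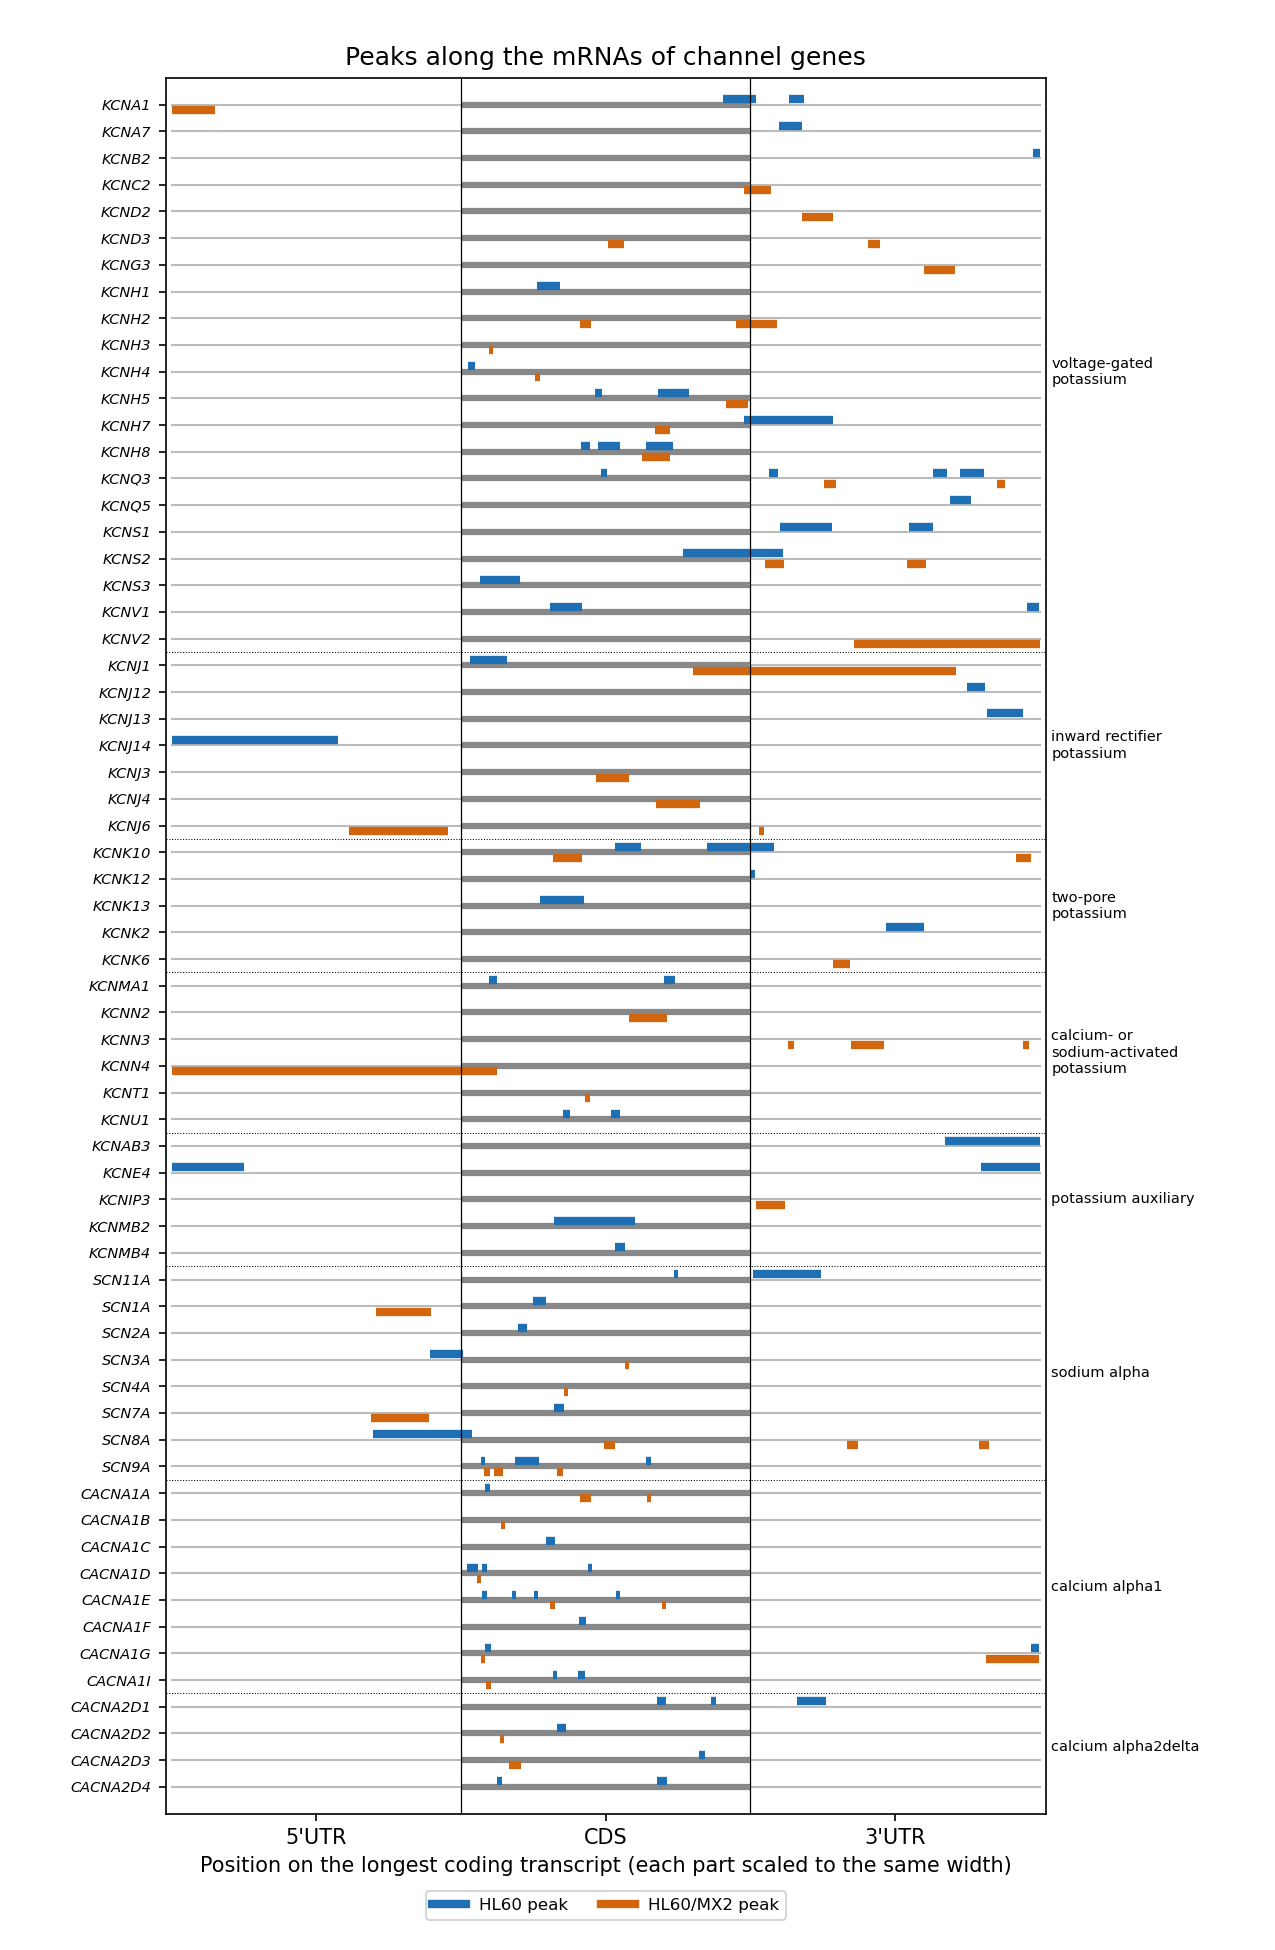
Peaks of HL60 (blue, above the line) and HL60/MX2 (orange, below) on the longest coding transcript of each channel gene, with the 5'UTR, the CDS and the 3'UTR each scaled to the same width and genes grouped by subfamily. Peaks shorter than a visible width are drawn wider than they are, and peaks off this transcript (15 in HL60 and 9 in HL60/MX2) are not drawn, nor are all genes. The sodium and calcium channels carry most of their peaks in the CDS, and overlapping bars are seen in CACNA1D, CACNA1G, KCNH8 and KCNS2.

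Most channel genes with a peak in both lists had them at different places. Of the 25 genes, 4 had peaks that overlapped, and 8 had peaks of both lists in the same exon of the longest coding transcript. The nearest peaks of the lists lay a median of 5849 bp of genome apart, and over 10 kb apart in 9 genes. These distances include introns, and distances along the mRNA were not measured. In SCN9A and in CACNA1G, a peak of each list met at the border of exons 4 and 5 on the mRNA. The overlapping peaks were 4.40% (1.21-10.9%) of the channel gene peaks of HL60 and 6.06% (1.68-14.8%) of those of HL60/MX2, where 6.16% and 6.13% of all assigned peaks overlapped. In KCNH8, 275 bp of exon 13 were shared. The overlap in KCNS2 was 218 bp and lay in the 3'UTR. In CACNA1G 19 bp and in CACNA1D 11 bp were shared, the bases printed above, and the CACNA1D bases end at the end of exon 2. In 3 of the 4 pairs (CACNA1G, KCNH8 and KCNS2) the score stood at a lower percentile in HL60/MX2 than in HL60, and in CACNA1D at a higher (76.7 against 13.9).

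Each peak was then placed in a region of the longest coding transcript, where the start codon and stop codon classes reach 100 nt in both directions. In HL60, 49 of 76 classed peaks lay in the CDS, 64.5% (52.7-75.1%), beside 63.9% of all classed peaks of the list. In HL60/MX2, 31 of 57 did, 54.4% (40.7-67.6%), beside 59.9%. The 3'UTR held 26.3% (16.9-37.7%) and 31.6% (19.9-45.2%) of the channel gene peaks, beside 21.1% and 18.3% of all peaks. By length, the 3'UTR made up 43.6% of the transcripts concerned in HL60 and 49.95% in HL60/MX2. In HL60/MX2 the share of all peaks thus lay below the interval of the channel genes, and the share by length above it. The same transcripts were 47.3% CDS by length in HL60 and 42.0% in HL60/MX2. At the start codon there were 3 channel gene peaks in each list, 3.95% (0.822-11.1%) and 5.26% (1.10-14.6%), where all peaks had 7.01% and 11.9%.

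The sodium alpha and calcium alpha1 genes held larger shares of their peaks in the CDS than the potassium channel genes, with intervals apart in HL60 and overlapping in HL60/MX2. They held 85.2% (66.3-95.8%) of 27 classed peaks in the CDS in HL60 and 73.7% (48.8-90.9%) of 19 in HL60/MX2. The potassium channel genes held 47.6% (32.0-63.6%) of 42 and 41.7% (25.5-59.2%) of 36 there. Their transcripts differ as well, with 60.2% and 31.7% of the length in the CDS for the HL60 peaks. In the 3'UTR lay 40.5% and 41.7% of the potassium channel peaks, with 56.5% and 63.2% of the transcript length.

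**Figure D4:**
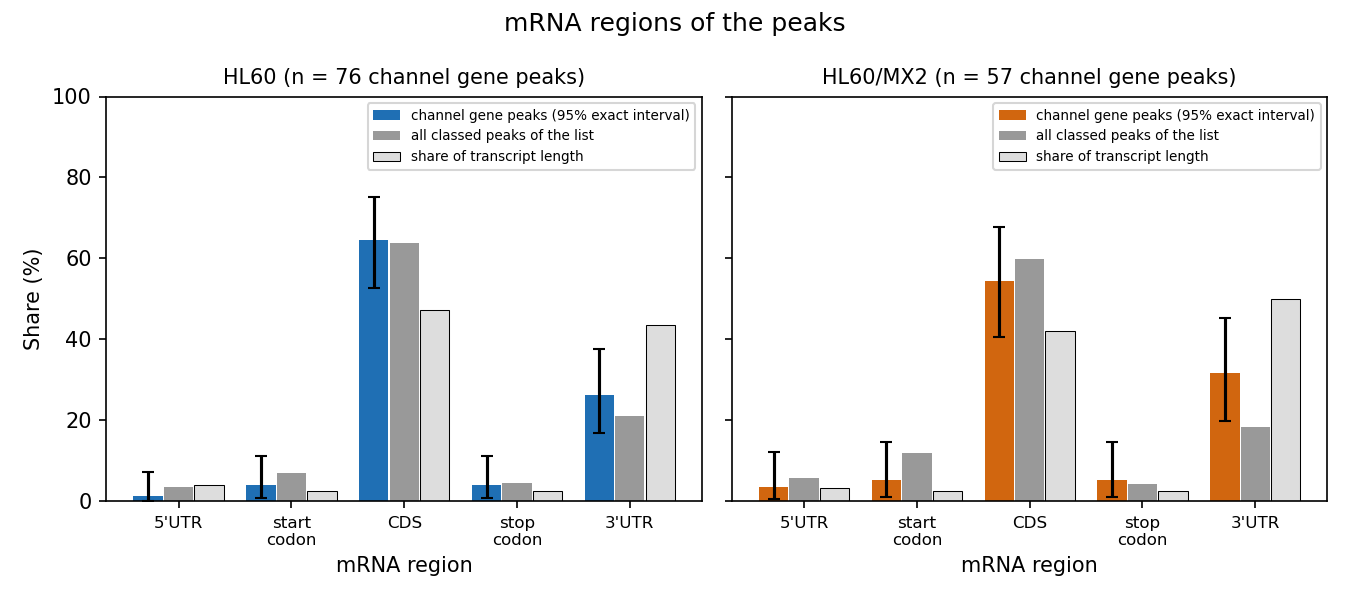
Shares (%) of channel gene peaks by mRNA region (coloured bars, exact 95% intervals), of all classed peaks of the same list (grey) and of the transcript length (light grey), for HL60 (left) and HL60/MX2 (right). The CDS is the largest class of the channel gene peaks in both, with 64.5% and 54.4%, and the 3'UTR follows with 26.3% and 31.6%.

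Off the longest coding transcript lay 15 channel gene peaks in HL60 (16.5%, 9.53-25.7%) and 9 in HL60/MX2 (13.6%, 6.43-24.3%), beside 15.2% and 15.7% of all assigned peaks. Of these, 4 and 3 lay in a coding part of another isoform, 9 and 6 in a UTR of another isoform, and 2 and 0 in non-coding transcripts only. KCNMA1 held 4 of those in HL60 and 2 of those in HL60/MX2. Of these, 3 in HL60 and 1 in HL60/MX2 lay in a UTR of another KCNMA1 isoform.

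The peaks touched little of the coding sequence. In the 60 voltage-gated potassium, sodium alpha and calcium alpha1 genes, 2.62% of the coding bases lay under an HL60 peak and 1.54% under an HL60/MX2 peak. Stretches with arginine or lysine 4 times at the spacing of an S4 segment were found at 135 places in these proteins, of which 3 lay whole under an HL60 peak and 1 under an HL60/MX2 peak. These were the CACNA1E, CACNA1G and SCN9A stretches printed above and another place in SCN9A, between codons 439 and 534, which matches the spacing outside an S4 segment. The potassium signature was found 78 times in 67 genes. In HL60 1 lay under a peak, in KCNS2, and in HL60/MX2 0 did, which allows a share of up to 3.85%. Peaks that touched codons covered 2.19% of the coding bases of these genes in HL60 and 1.58% in HL60/MX2.

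The borders of the peaks were set beside those of exons. A start or end at an exon end was found in 67.0% of the channel gene peaks of HL60 and 59.1% of those of HL60/MX2, beside 70.5% and 71.5% of all assigned peaks. A whole exon was covered by 25 channel gene peaks in HL60 (27.5%, all assigned peaks 29.7%) and 15 in HL60/MX2 (22.7%, all assigned peaks 29.8%). Of these, the calcium alpha1 genes had 7 and 5 and the sodium alpha genes 6 and 3. The median length was 152 bp in HL60 and 187.5 bp in HL60/MX2, beside 128 and 132 bp over all assigned peaks. The range ran from 6 to 723 bp and from 6 to 1216 bp.

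Scores stood near the middle of each list. The median percentile of the channel gene peaks was 51.9 in HL60 (quartiles 31.4 and 75.9) and 58.5 in HL60/MX2 (quartiles 32.4 and 78.2). By subfamily, the sodium alpha genes had the lowest median percentile in HL60, 31.5, with 6 of the 13 peaks under 15. In HL60/MX2 it was the 3 peaks of the auxiliary genes, with a median of 25.6. Scores recur in these lists, with 66 distinct values among the 91 channel gene peaks of HL60 and 56 among the 66 of HL60/MX2.

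**Figure D5:**
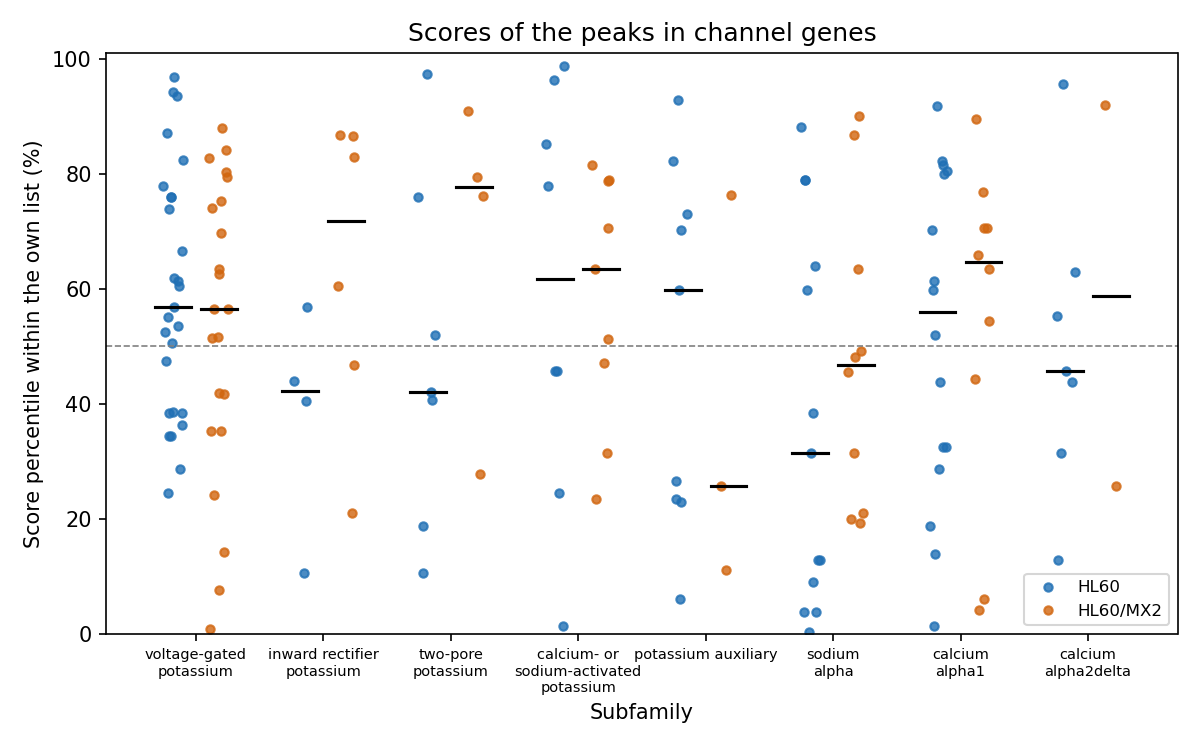
Percentile of the score within its own list (y axis, %) for each channel gene peak by subfamily, HL60 in blue and HL60/MX2 in orange, with the median as a black line and the middle of a list as a dashed line. Points spread over nearly the whole range in both lists, and the sodium alpha peaks of HL60 have a median of 31.5.

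Words of the motifs CUGKR and GGAAR, which the study derived from peaks of these lists and which are therefore not independent of them, were looked for on the strand of the gene. GGAAA or GGAAG occurred in 40.7% (30.5-51.5%) of the channel gene peaks of HL60 and in 56.1% (43.3-68.3%) of those of HL60/MX2, beside 43.7% and 43.0% of all assigned peaks. Per kb, these words occurred 4.10 times under the peaks of HL60 and 4.91 times under those of HL60/MX2, beside 3.54 and 3.53 times in the exons of the same genes. CTGG or CTGT followed by A or G was in 59.3% (48.5-69.5%) and 62.1% (49.3-73.8%) of the channel gene peaks, beside 55.8% and 57.1% of all assigned peaks. Such words occurred 6.48 and 7.36 times per kb under the peaks and 7.25 and 7.59 times per kb in the exons of the same genes. The mean GC content was 46.5% (SD 8.83, 91 peaks) and 49.0% (SD 11.4, 66 peaks), beside 46.0% and 49.4% over all assigned peaks.

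On chromosome 8, 5 of the 6 channel genes had a peak in HL60, with 10 peaks, and 2 in HL60/MX2, with 4 peaks. Of all genes of chromosome 8, 29.8% and 31.5% had a peak. Without these genes, a choice made after seeing the data, 51 of 113 channel genes had a peak in HL60 (45.1%, 35.8-54.8%, like genes 32.4%) and 42 in HL60/MX2 (37.2%, 28.3-46.8%, like genes 35.2%). On chromosome 9, 0 of 3 channel genes had a peak in HL60 and all 3 in HL60/MX2, where 23.8% and 30.4% of all genes of chromosome 9 had one. Chromosome 6 went the other way, with 3 of 4 channel genes in HL60 and 0 in HL60/MX2 (all its genes 30.6% and 30.1%). These chromosomes were singled out from all chromosomes with their values known.

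Genes that act with these channels but fall outside the rule were taken from a list of 51, of auxiliary sodium and calcium channel subunits, HCN and CNG channels, the NALCN leak channel complex, other cation channels and partners. Of these, 17 had a peak in HL60 (33.3%, like genes 31.3%) and 20 in HL60/MX2 (39.2%, like genes 34.5%), with 9 in both. The NALCN complex had, in HL60 and then HL60/MX2, 2 and 4 peaks in NALCN, 7 and 1 in UNC79 and 6 and 2 in UNC80. The calcium channel beta subunits had 1 peak in HL60 and 2 in HL60/MX2, in CACNB1 (1 in each) and CACNB4 (HL60/MX2). HVCN1, the proton channel of phagocytes, had 1 peak in HL60 and 0 in HL60/MX2. The genes named here were singled out from the 51 with their values known. No rate of genes of like exon length and number is set beside their peak counts.

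The labelled cell type was set beside marker genes, though a peak does not measure expression. Of 15 genes of promyelocytes, 2 had a peak in HL60 (CTSG and KIT; like genes 19.7%) and 2 in HL60/MX2 (CD33 and CSF3R; like genes 20.8%). MPO, ELANE, AZU1 and PRTN3, which like CTSG encode granule proteins of these cells, had none. Of 15 neuronal genes, 7 had a peak in HL60 (46.7%, like genes 34.5%) and 5 in HL60/MX2 (33.3%, like genes 36.6%). Of 15 genes of heart and skeletal muscle, 7 had a peak in HL60 (46.7%, like genes 33.8%) and 4 in HL60/MX2 (26.7%, like genes 36.3%). The neuronal and muscle shares were, like that of the channel genes, higher in HL60 than in HL60/MX2. The share of the related channel genes outside the rule was lower in HL60 (33.3%) than in HL60/MX2 (39.2%). So was that of all genes (26.4% and 28.6%), and the promyelocyte count was 2 in each list. The part of the neuronal and muscle genes in the result was not tested.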

How the data were processed

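Peak lists of 1 m7G-enriched library of HL60 and 1 of HL60/MX2 were analysed. The authors trimmed adaptors with Cutadapt 1.9.3, aligned reads to hg19 with HISAT2 2.0.4, called peaks with MACS (settings not given in the sources used here) and kept peaks over protein-coding exons. The deposited score of each peak has no stated scale and was used only within its list. Read depth is unknown. Exons came from GENCODE release 44 on hg19, checked by the length of chromosome 1 (249250621 bp). All genes were put in 10 classes of merged exon length, each with 5 classes of exon number, and the share of like genes is that of the non-members in each class, averaged over the members. Regions, open reading frames and residue patterns were read from the longest coding transcript. No tests between the lines were made. Alternatives varied the assignment, score, length, exons, classes, overlap and regions. The genes named were all CACNA1 and SCN genes, those with 2 or more peaks or a peak in both lists, those with the 5 highest and 5 lowest scores, KCNA3, KCNN4, KCNH2 and the KCNE genes, and, by name within their subfamily, the others with a peak. Some genes are not reported here. Members and lists were chosen with earlier results of these data known. The steps used Python 3.11.15, numpy 2.4.6, scipy 1.17.1 and matplotlib 3.10.9 and were tested on simulated data: of 2000 simulated peaks, 97.9% were given to their gene.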

Additional observations from a re-analysis of the deposited data

How the results depend on the processing

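Only peaks at or above the median score of their list left 35 channel genes (29.4%) with 48 peaks in HL60, where like genes had 19.6%, and 30 genes (25.2%) with 39 peaks in HL60/MX2, where like genes had 20.04%. With only peaks of at least 50 bp, the shares were 42.9% (like genes 28.5%) and 32.8% (31.3%), and with only exons of the longest coding transcript, chosen after seeing the data, 40.3% (28.6%) and 33.6% (31.0%). Classes by exon length alone gave like genes of 31.9% and 34.5%, and genes of the same chromosome in 3 classes of exon length, chosen after seeing the data, 31.5% and 34.1%. Shared peaks with an overlap of at least 50% of both numbered 1 in each list. With any isoform, and the start and stop codon classes taken first, the CDS share was 44.9% in HL60 and 42.4% in HL60/MX2. No share of all peaks by this rule is given here. Of 70 alternatives for these results, 60 stayed within 1.5 times a count or within the interval of a share. No paired analysis was possible because each line has 1 library. No count of reads is given, so a gene without a peak cannot be told apart from a gene with too few reads.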

Other observations

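A peak in each of the lists was held by 12.0% of all genes, while 14.5% had HL60 peaks alone and 16.6% HL60/MX2 peaks alone. The neuronal marker genes SNAP25, GAP43, NEFM, DCX and GAD1 had peaks in HL60 only and SYT1 and SLC17A7 in HL60/MX2 only, while MAP2 and STMN2 had peaks in both. Of the calcium release channels of muscle, RYR2 had 5 HL60 peaks and 0 HL60/MX2 peaks, and RYR1 0 and 3. Among the partners of sodium channels, the ankyrins ANK2 and ANK3, which anchor them in the membrane, had 3 and 4 peaks in HL60, against 0 and 1 in HL60/MX2. These genes were singled out after their values were seen, and no test was made.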
